A study of Mus musculus with 6 samples.

Results

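The EGF family ligands and their ErbB receptors were followed in primary mouse renal tubule epithelial cells (RTECs) given TGF-β1. The members were 7 ligand genes (Egf, Hbegf, Tgfa, Areg, Ereg, Btc and Nrg1) and 3 receptor genes (Egfr, Erbb2 and Erbb3), found by symbol after the version was dropped from each Ensembl gene identifier. All 10 were among the 46517 genes of the files, and all 10 were among the 15862 genes with enough reads to be tested. Poly(A) RNA was sequenced from 3 control cultures (CTL) and 3 cultures given 50 ng/ml TGF-β1 for 24 h. The cells of both groups came from wild-type FvB mice aged 4 to 6 weeks by the labels and had grown in RPMI with 10% serum, insulin-transferrin-selenium and 20 ng/ml EGF. At 70% confluence both groups were moved to serum-free RPMI for 24 h before the treatment. Whether EGF stayed in that medium is not given in the sources used here, and added EGF protein is not counted by sequencing of RNA. The cultures were a mixed primary preparation of tubules, and a change in the number of cells of one type cannot be told apart from a change in RNA per cell.

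EGF family ligands are made as membrane-anchored precursors, and metalloproteases of the ADAM family cut them to release the active growth factor. A ligand joins ErbB receptors into pairs, whose kinase domains then start the RAS-ERK, PI3K-AKT and PLCγ pathways. EGF, TGFα and amphiregulin bind EGFR, HB-EGF, betacellulin and epiregulin bind EGFR and ErbB4, and neuregulin 1 binds ErbB3 and ErbB4. ErbB2 has no known soluble ligand and serves as a favoured partner of the others, while ErbB3 has very little kinase activity of its own. In the kidney the EGF gene is mainly used by the thick ascending limb and distal tubule, EGFR is found along most of the nephron, and long-lasting EGFR signalling in tubules has been linked to fibrosis.

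Libraries held 28313080 to 34183497 reads on genes, so 1 library's limit of 3 reads lay at 0.0878 to 0.106 CPM (reads on a gene per 1e+06 reads on genes). Values below are CPM scaled by edgeR's TMM factors. The replicate 2 cultures stood apart in both groups. On the second principal component, with 30.4% of the variance, they lay at -39.1 and -29.5 and the other 4 libraries lay at 4.09 to 27.4. Of 8 general tubule epithelial markers, 5 were lowest in both replicate 2 cultures (Cdh1, Epcam, Krt8, Krt18 and Krt19). In CTL replicate 2, Pax8 was the highest of its group and Pax2 and Cdh16 were not the lowest. The summed level of the 8 markers ran over 1120 to 2840 CPM in CTL and 963 to 2320 CPM with TGF-β1. Of 8 fibroblast and mural cell markers, 5 were highest in both replicate 2 cultures, with sums of 803 to 2120 CPM in CTL and 764 to 2410 CPM with TGF-β1. Summed CTL and TGF-β1 levels were 78.0 to 93.9 and 35.8 to 49.6 CPM for 8 proximal tubule markers, 1.91 to 4.06 and 1.67 to 2.18 CPM for 8 thick limb and distal tubule markers, and 9.66 to 22 and 30.0 to 57.4 CPM for 7 collecting duct markers. They were 446 to 683 and 358 to 417 CPM for 5 podocyte markers, 4.30 to 8.93 and 5.01 to 8.77 CPM for 7 endothelial markers, and 9.30 to 21.4 and 6.80 to 18.4 CPM for 8 leukocyte markers. Slc5a2 of the proximal list, Kcnj1 and Pvalb of the thick limb and distal list, Foxi1 and Slc4a1 of the collecting duct list and Cd3e and Ms4a1 of the leukocyte list had at most 3 reads in every library, and no marker was at 0 in all 6. By edgeR Pax8, Cdh16, Aqp1, Lrp2 and Csf1r were called lower and Hsd11b2 higher. With the replicate number as a block, 6 of the 8 epithelial markers were called lower and 0 higher, as were 3 and 0 of 5 podocyte markers. Of the fibroblast and mural markers 2 were called higher and 2 lower. Over all genes tested, the blocked fit called 15.1% higher and 19.1% lower. Among genes known to answer TGF-β, edgeR called Fn1 higher by 1.04 on the log2 scale and Smad7, Skil, Ltbp2 and Pmepa1 higher by 0.42 to 0.87. Ccn2 (0.18) and Tgfbi (-0.18) were not called, and with the replicate block Ccn2 was (edgeR adjusted p = 0.0438).

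With TGF-β1 the ligands Hbegf and Nrg1 rose and the receptor Erbb2 fell, each by edgeR's quasi-likelihood test with a Benjamini-Hochberg adjusted p under 0.05 over all genes tested. The other 7 members did not pass. Over all genes tested, 5.00% were called higher and 6.69% lower. Cultures that share a replicate number deviated together, and with the replicate number as a block edgeR called 3 members higher and 4 lower, adding Areg to the first and Tgfa, Egfr and Erbb3 to the second. In that fit 15.1% of all genes tested were called higher and 19.1% lower. Counted by library, 3 members had all TGF-β1 cultures above all CTL cultures (Hbegf, Nrg1 and Areg), 1 had them all below (Erbb2), and 6 overlapped. Of all genes tested, 17.2% were wholly above and 18.0% wholly below.

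**Figure D1:**
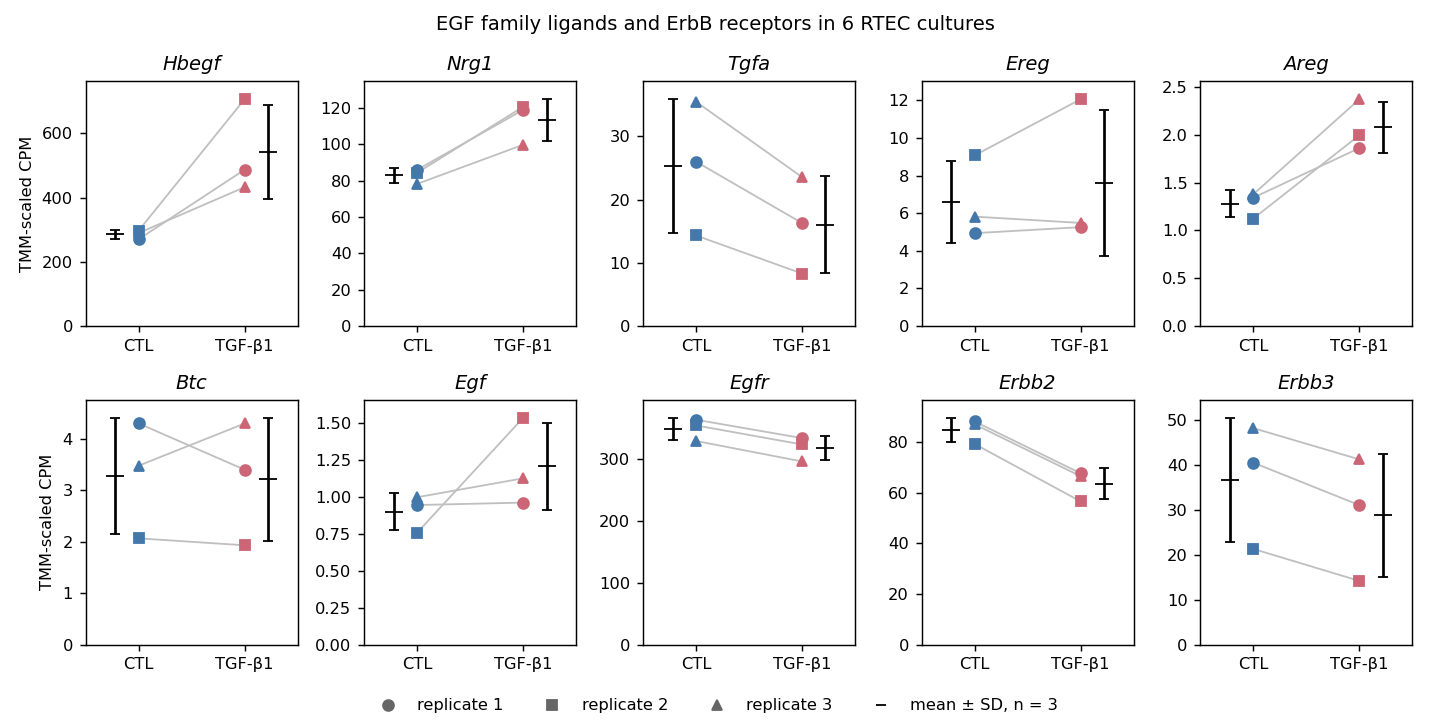
TMM-scaled CPM (vertical axes, each from 0) of the 10 members in the 3 CTL (blue) and 3 TGF-β1 (red) cultures. Grey lines join cultures with the same replicate number and black bars give the mean ± SD. Hbegf, Nrg1 and Areg are higher and Erbb2 is lower in all TGF-β1 cultures, while in Tgfa, Ereg, Btc and Erbb3 the replicate 2 cultures (squares) lie apart from the others in both groups.

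Per kb of annotated exon, the scale on which genes can be compared with each other, Hbegf was the highest of the family in both groups. Its level was 59.1 ± 2.83 CPM per kb (SD, n = 3) in CTL and 112 ± 30.0 with TGF-β1. Egfr followed at 30.9 ± 1.57 and 28.1 ± 1.73 CPM per kb. Erbb2 came next at 16.3 ± 0.93 in CTL and 12.2 ± 1.17 with TGF-β1, and then Nrg1 at 8.01 ± 0.40 and 10.9 ± 1.12. Erbb3 (6.10 ± 2.31 and 4.79 ± 2.27) and Tgfa (3.90 ± 1.63 and 2.47 ± 1.18) varied much more between cultures. Below them lay Ereg (1.60 and 1.84), Areg (1.05 and 1.71) and Btc (0.726 and 0.710), and Egf was the lowest member at 0.0799 and 0.107 CPM per kb. The order was read over the family of 15 genes, with neighbours taken to differ when the mean log2 ratio within libraries exceeded its SD. By that reading Nrg1 and Erbb3 in CTL did not differ, nor did Erbb2 and Nrg1 with TGF-β1. Per kb of the longest transcript instead, Nrg1 (20.9) lay above Erbb2 (12.7) with TGF-β1. Other neighbours that did not differ were Tgfa, Erbb4, Ereg and Areg, each from the next, and Egf and Epgn in CTL, and Tgfa, Ereg and Areg, each from the next, Erbb4 and Btc, and Nrg4 and Egf with TGF-β1.

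As a share of the summed level of all 11 ligand genes of the family, Hbegf made up 78.6% ± 1.87 in CTL and 85.6% ± 2.87 with TGF-β1 (SD, n = 3). The sum itself was 72.4, 76.1 and 77.1 CPM per kb in the CTL cultures and 119, 165 and 108 in the TGF-β1 cultures. The share of Nrg1 was 10.7% ± 0.84 and 8.58% ± 1.34, although its own level was higher with TGF-β1. Among the 4 receptor genes Egfr held 55.4% ± 3.06 in CTL and 61.5% ± 5.31 with TGF-β1, and Erbb2 held 29.1% ± 0.94 and 26.6% ± 1.07. The summed receptor level was 58.9, 53.4 and 55.2 CPM per kb in CTL and 48.5, 42.6 and 46.3 with TGF-β1. These sums were read without a test.

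**Figure D2:**
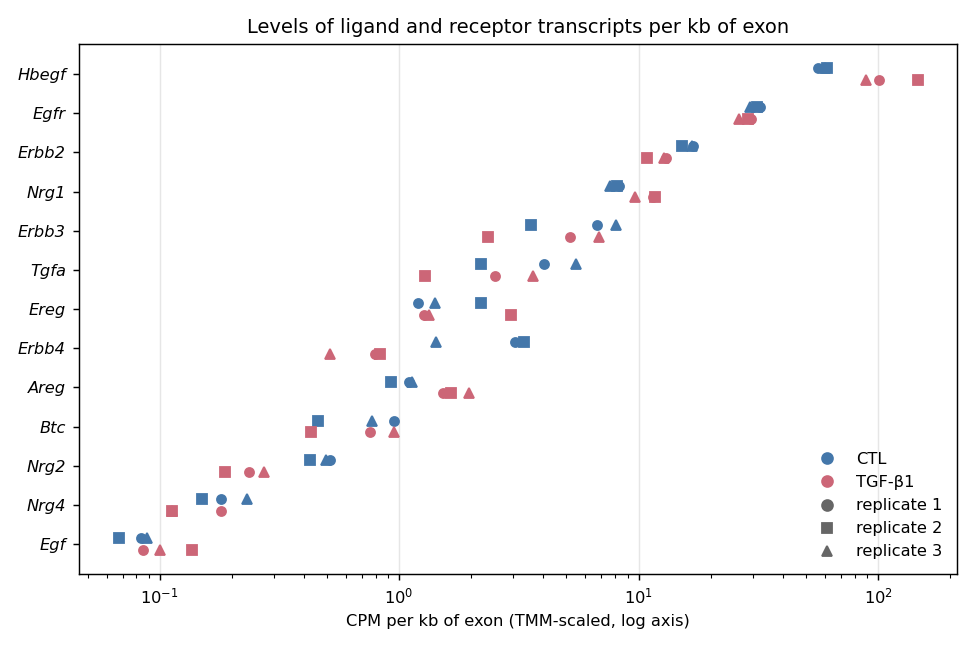
TMM-scaled CPM per kb of exon (horizontal log axis) of the 13 family genes that could be tested, 1 point per culture, CTL in blue and TGF-β1 in red, ordered by mean. Hbegf stands highest in every culture and Egf lowest or next to lowest, with Egfr the highest receptor.

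Hbegf encodes heparin-binding EGF-like growth factor and lies at chr18:36504927-36515805 (GRCm38, minus strand). It was at 270.3, 296.8 and 289.6 CPM in CTL replicates 1, 2 and 3 and at 486.9, 706.8 and 432.6 CPM in the TGF-β1 cultures. Every TGF-β1 culture was above every CTL culture, and replicate 2 was the highest of its group. The mean went from 285.6 ± 13.7 to 542.1 ± 145 CPM (SD, n = 3), a 1.9-fold rise (log2 fold change 0.93, SE 0.19, 95% interval 0.47 to 1.38, edgeR adjusted p = 0.0318). The log2 ratios within replicate numbers 1, 2 and 3 were 0.85, 1.25 and 0.58. Without replicate 2 in both groups the log2 fold change was 0.72 (edgeR adjusted p = 0.00505). Hbegf was not called without replicate 1 or without replicate 3 in both groups (edgeR adjusted p = 0.339 and 0.0901). The fit without replicate 1 in both groups called 0 of all genes tested. The edgeR call was lost without CTL replicate 1, 2 or 3 or without TGF-β1 replicate 1 (adjusted p = 0.137, 0.0705, 0.0772 and 0.0878), and when genes with a single read were kept (0.0628). With the replicate block and all libraries the log2 fold change was 0.89 (SE 0.12, edgeR adjusted p = 0.00326).

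Nrg1 encodes neuregulin 1 and lies at chr8:31814551-32884029 on the minus strand. Its levels were 86.1, 84.4 and 78.3 CPM in CTL and 119.1, 120.8 and 99.9 CPM with TGF-β1. The groups did not overlap, and the lowest TGF-β1 value belonged to replicate 3, which was also the lowest in CTL. Nrg1 rose 1.37-fold (log2 fold change 0.45, SE 0.09, 95% interval 0.24 to 0.66, edgeR adjusted p = 0.0256), with log2 ratios of 0.47, 0.52 and 0.35 within replicate numbers. Of its exon bases 4.66% are shared with the opposite-strand transcript Gm26578, which had 684 to 1090 reads per library. Reads on those bases cannot be assigned to a strand here. Of the 6 edgeR fits that left out 1 library, only that without TGF-β1 replicate 3 kept the call (adjusted p = 0.0188), and the others gave adjusted p = 0.057 to 0.103. With the replicate block and all libraries the log2 fold change was 0.45 (SE 0.05, edgeR adjusted p = 0.000311).

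Areg encodes amphiregulin. It had 44, 37 and 40 reads in CTL and 58, 61 and 80 with TGF-β1, or 1.34, 1.12 and 1.38 CPM against 1.86, 2.00 and 2.37 CPM. All TGF-β1 cultures were above all CTL cultures at this low level. The log2 fold change of 0.70 (SE 0.18, 95% interval 0.27 to 1.12) missed the threshold over all genes (edgeR adjusted p = 0.055) and passed it with the replicate block (0.69, SE 0.17, adjusted p = 0.0156). The log2 ratios within replicate numbers were 0.47, 0.83 and 0.78.

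Ereg and Btc lie in the same stretch of chromosome 5 as Areg, in the order Epgn, Ereg, Areg and Btc over 376 kb, with Btc on the opposite strand. Their values followed the replicate number more than the treatment. Ereg, which encodes epiregulin, was at 4.94, 9.08 and 5.82 CPM in CTL and 5.26, 12.1 and 5.49 CPM with TGF-β1, and in each group replicate 2 was the highest. Btc, which encodes betacellulin, was at 4.30, 2.07 and 3.48 CPM in CTL and 3.40, 1.93 and 4.30 CPM with TGF-β1, and in each group replicate 2 was the lowest. For both genes the groups overlapped. The log2 fold change of Ereg was 0.20 (95% interval -0.78 to 1.18, edgeR adjusted p = 0.791) and that of Btc was -0.03 (-0.94 to 0.88, adjusted p = 0.974), and neither passed with the replicate block (0.331 and 0.88). The log2 ratio of replicate 2 to the mean of the other cultures was 0.76 in CTL and 1.17 with TGF-β1 for Ereg, and -0.914 and -0.996 for Btc.

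Tgfa encodes TGFα, an EGFR ligand unrelated to TGF-β1, and lies at chr6:86195223-86275719 on the plus strand. It was at 26.0, 14.3 and 35.5 CPM in CTL and 16.3, 8.31 and 23.6 CPM with TGF-β1. The groups overlapped, but within each replicate number the TGF-β1 culture was the lower one, with log2 ratios of -0.68, -0.79 and -0.59. Without the block the log2 fold change was -0.65 (SE 0.46, 95% interval -1.78 to 0.47, edgeR adjusted p = 0.413), and with it -0.67 (SE 0.07, 95% interval -0.83 to -0.52, edgeR adjusted p = 0.000221). Without the block, the log2 fold change was -1.04 when TGF-β1 replicate 3 was left out and -0.33 when CTL replicate 3 was. Replicate 2 lay 1.10 below the others in CTL and 1.26 below with TGF-β1 on the log2 scale. The general epithelial marker sums were also lowest in replicate 2, at 1120 CPM in CTL and 963 CPM with TGF-β1, and their part in the spread of Tgfa was not tested. Without replicate 2 in both groups the blocked log2 fold change was -0.63 (edgeR adjusted p = 0.000144).

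Egf was the lowest member by level, with 31, 25 and 29 reads in CTL and 30, 47 and 38 with TGF-β1. At 0.946, 0.759 and 0.999 CPM against 0.962, 1.54 and 1.13 CPM, the groups overlapped. Its log2 fold change was 0.42 (95% interval -0.17 to 1.01, edgeR adjusted p = 0.311) and was 0.11 without replicate 2 in both groups. The 2 annotated antisense transcripts over its exons had at most 1 read in any library. The low level of Egf sits beside the low sums of the thick limb and distal markers given above, and a link between them was not tested. The 2 RefSeq promoters below, each from 250 bases before to 50 after a start site in GRCm38.p6, are shown as examples from lowly expressed ligands. Btc, Epgn, Nrg3 and Nrg4 were also low and had an entry, and are not shown. The Btc promoter held 5 CpG dinucleotides and no TATA box. RefSeq lists 2 promoters for Egf. The one at the annotated gene start, chr3:129755273-129755572 (minus strand), is shown and held 0 CpG dinucleotides, the one at chr3:129725037-129725336 held 17, and the median of all 32851 promoters of this length was 7. The Areg promoter at chr5:91139349-91139648 (plus strand) held 21 and has a TATA box 31 bases before the start, in capitals. Only Areg and Epgn held this motif among the 10 family genes with an entry, against 13.6% of all promoters. The letters searched were TATAAA, on both strands.
Egf: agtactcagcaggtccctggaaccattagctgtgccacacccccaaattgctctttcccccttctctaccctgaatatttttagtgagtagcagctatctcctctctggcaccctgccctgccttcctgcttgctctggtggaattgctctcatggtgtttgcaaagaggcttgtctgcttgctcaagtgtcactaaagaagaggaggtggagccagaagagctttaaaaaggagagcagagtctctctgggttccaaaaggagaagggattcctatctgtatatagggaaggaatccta
Areg: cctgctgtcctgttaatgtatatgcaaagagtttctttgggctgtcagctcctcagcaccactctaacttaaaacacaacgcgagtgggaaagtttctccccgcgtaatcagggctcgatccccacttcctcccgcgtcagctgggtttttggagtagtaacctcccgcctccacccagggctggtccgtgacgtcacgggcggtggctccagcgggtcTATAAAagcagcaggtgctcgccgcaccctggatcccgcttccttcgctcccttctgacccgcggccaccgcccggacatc

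Of the receptors, Egfr, the receptor of most members above, lies at chr11:16752203-16918158 and Erbb2 at chr11:98412470-98437716, both on the plus strand. Egfr was at 364.2, 355.0 and 329.8 CPM in CTL and 334.4, 324.1 and 296.6 CPM with TGF-β1. The groups overlapped by 1 TGF-β1 culture. Each TGF-β1 culture was below the CTL culture of the same replicate number, by 0.12, 0.13 and 0.15 on the log2 scale. The log2 fold change was -0.14 (SE 0.07, 95% interval -0.30 to 0.03, edgeR adjusted p = 0.252) without the block and -0.14 (SE 0.04, adjusted p = 0.0413) with it. Erbb2 was at 88.1, 79.2 and 86.9 CPM in CTL and 67.6, 56.5 and 66.4 CPM with TGF-β1. The groups did not overlap, and replicate 2 was the lowest of each. Erbb2 fell to 0.75 times the CTL level (log2 fold change -0.42, SE 0.08, 95% interval -0.62 to -0.21, edgeR adjusted p = 0.0305), with log2 ratios of -0.38, -0.49 and -0.39 within replicate numbers. The edgeR call held without CTL replicate 2 or TGF-β1 replicate 2 (adjusted p = 0.0441 and 0.0389) and was lost without CTL replicate 1 or 3 or TGF-β1 replicate 1 or 3 (0.133, 0.077, 0.0771 and 0.0608). With the replicate block and all libraries the log2 fold change of Erbb2 was -0.42 (SE 0.05, edgeR adjusted p = 0.000344).

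Erbb3, a receptor of neuregulins, lies at chr10:128567523-128589652 on the minus strand. It was at 40.5, 21.3 and 48.2 CPM in CTL and 31.1, 14.2 and 41.2 CPM with TGF-β1. The groups overlapped widely, with replicate 2 lowest and replicate 3 highest in each. Within replicate numbers the TGF-β1 culture was always lower, by log2 ratios of -0.38, -0.59 and -0.23. The log2 fold change was -0.35 (SE 0.45, 95% interval -1.45 to 0.76, edgeR adjusted p = 0.669) without the block and -0.38 (SE 0.07, 95% interval -0.55 to -0.22, edgeR adjusted p = 0.00492) with it. As for Tgfa, replicate 2 was far below the others, by 1.06 in CTL and 1.35 with TGF-β1 on the log2 scale, beside the low epithelial sums of the same cultures. In the blocked fit Erbb3, Tgfa and Egfr were called lower beside 6 of the 8 epithelial markers, whose part in these falls was not tested. Without the block, leaving out TGF-β1 replicate 2 moved the log2 fold change of Erbb3 to -0.02 and leaving out TGF-β1 replicate 3 moved it to -0.70.

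Erbb4, the remaining receptor, belongs to a list of 5 further family genes (Epgn, Nrg2, Nrg3, Nrg4 and Erbb4) and had the largest fold change of the 13 family genes tested. It lies at chr1:68032186-69108059 on the minus strand and was at 37.8, 40.9 and 17.5 CPM in CTL and 9.82, 10.3 and 6.38 CPM with TGF-β1. The groups did not overlap, and replicate 3 was the lowest of each. Erbb4 fell to 0.275 times the CTL level (log2 fold change -1.86, SE 0.36, 95% interval -2.75 to -0.98, edgeR adjusted p = 0.029), with log2 ratios of -1.94, -1.99 and -1.46 within replicate numbers. Its share of the summed receptor level was 4.65% ± 1.87 in CTL and 1.57% ± 0.42 with TGF-β1 (SD, n = 3). The edgeR call held without CTL replicate 3 (adjusted p = 0.0111) and was lost without each other single library (0.0633 to 0.114), without replicate 1 (0.342) or replicate 2 (0.0521) in both groups, with genes of a single read kept (0.0939) and in limma-voom (0.0508). The fit without replicate 1 in both groups called 0 of all genes tested. With the replicate block the log2 fold change was -1.82 (SE 0.11, edgeR adjusted p = 2.16e-05).

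The promoters of Egfr, Erbb2 and Erbb4 are shown because the blocked fit called all 3 genes lower. They are from RefSeq (GRCm38.p6), run from 250 bases before to 50 after the start, and have their CpG dinucleotides in capitals. They lie at chr11:16751953-16752252 (plus strand), chr11:98412234-98412533 (plus strand) and chr1:69108010-69108309 (minus strand). They held 15, 21 and 17 CpG dinucleotides against a median of 7 over all promoters, and none held the TATA box. Entries were found for 6 of the 10 members and 10 of the 15 family genes. The SMAD box CAGAC, searched on both strands, was in the Egfr window at 31 bases past the start and in neither of the others, and 49.6% of all promoters held it. The AP-1 letters TGANTCA were in 7.81% of all promoters and in none of the 3.
Egfr: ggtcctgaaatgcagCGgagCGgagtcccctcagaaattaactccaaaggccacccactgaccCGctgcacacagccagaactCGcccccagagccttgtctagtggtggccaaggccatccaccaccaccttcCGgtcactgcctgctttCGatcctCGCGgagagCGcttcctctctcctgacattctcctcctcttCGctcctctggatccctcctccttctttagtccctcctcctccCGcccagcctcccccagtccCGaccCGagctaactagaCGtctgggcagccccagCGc
Erbb2: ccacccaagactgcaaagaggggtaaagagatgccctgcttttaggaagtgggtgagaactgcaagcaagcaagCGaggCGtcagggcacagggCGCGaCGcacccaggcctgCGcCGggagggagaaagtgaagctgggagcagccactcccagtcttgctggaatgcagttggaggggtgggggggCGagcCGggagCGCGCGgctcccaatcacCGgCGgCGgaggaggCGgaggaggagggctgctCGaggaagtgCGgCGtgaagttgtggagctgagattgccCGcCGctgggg
Erbb4: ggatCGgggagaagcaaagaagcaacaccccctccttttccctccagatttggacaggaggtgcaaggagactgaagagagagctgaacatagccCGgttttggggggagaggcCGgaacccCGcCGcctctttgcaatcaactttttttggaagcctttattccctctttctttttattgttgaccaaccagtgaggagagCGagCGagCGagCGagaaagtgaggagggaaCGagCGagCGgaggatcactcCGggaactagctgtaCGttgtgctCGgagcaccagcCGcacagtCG

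**Figure D3:**
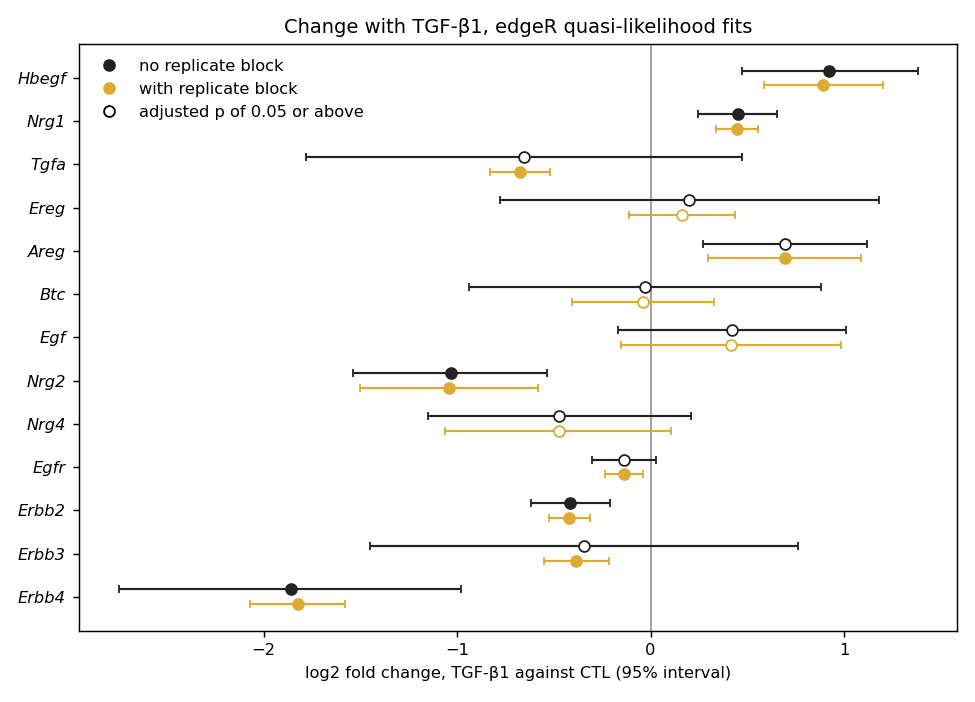
Log2 fold change of TGF-β1 against CTL (horizontal axis) with 95% intervals for the 13 family genes tested, without (black) and with (yellow) the replicate block. Filled points have an edgeR adjusted p under 0.05. The block leaves the estimates of Tgfa and Erbb3 near -0.67 and -0.38 and narrows their intervals most, and Erbb4 lies farthest from 0.

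Of the other ligand genes, Nrg2 was called lower, Nrg4 was not called, and Epgn and Nrg3 could not be tested. Nrg2, a neuregulin, had 53, 44 and 45 reads in CTL and 23, 18 and 29 with TGF-β1, so that all TGF-β1 cultures were lower. Its log2 fold change was -1.03 (SE 0.21, 95% interval -1.54 to -0.53, edgeR adjusted p = 0.0294), and every edgeR fit that left out 1 library missed the threshold (adjusted p = 0.0506 to 0.131). With the replicate block and all libraries it was -1.04 (SE 0.20, edgeR adjusted p = 0.00503). Nrg4 had 21 to 41 reads in each library and a log2 fold change of -0.47 (95% interval -1.15 to 0.21, edgeR adjusted p = 0.329). Of its exon bases 6.06% are shared with Fbxo22 on the opposite strand. Epgn had 0 to 4 reads in each library and Nrg3 had 0 to 1.

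Release of the ligands was represented by 10 genes for ADAM proteases, their helpers and their inhibitor. By edgeR 0 of the 10 were called, beside 5.00% higher and 6.69% lower of all genes tested. In that fit 2 of the 10 had an unadjusted p under 0.05, as did 4529 of the 15862 genes tested. DESeq2 called 1 of the 10 higher, beside 1201 of all genes tested, and limma-voom called 0. The median log2 fold change was 0.02, against 0.00 over all genes tested. Adam17, the main sheddase of several EGFR ligands, was at 93.3, 85.0 and 95.5 CPM in CTL and 82.2, 81.9 and 89.9 CPM with TGF-β1 (log2 fold change -0.11, edgeR adjusted p = 0.332). Adam10, which cuts the precursors of EGF and betacellulin, had a log2 fold change of 0.13 (edgeR adjusted p = 0.404). With the replicate block edgeR called 3 higher and 2 lower, beside 15.1% and 19.1% of all genes tested. All 5 were named after their values were seen. Adam12 (1.19), Adam19 (0.48) and Nrdc (0.14) were higher, and Cd9 (-0.56) and Rhbdf2 (-0.24) were lower on the log2 scale. Adam12 was at 156.8, 85.2 and 223.5 CPM in CTL and 355.9, 249.3 and 403.9 CPM with TGF-β1, without overlap.

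Of 15 genes that restrain ErbB receptors or control their turnover, edgeR called 4 higher and 1 lower, or 6 and 4 with the replicate block. The shares over all genes tested were 5.00% and 6.69%, or 15.1% and 19.1% with the block. The median log2 fold change was 0.00, as over all genes tested. Lrig3 had the largest change, from 53.0, 56.2 and 46.1 CPM to 209.5, 248.2 and 193.2 CPM (log2 fold change 2.07, SE 0.12, edgeR adjusted p = 0.00121). Its relative Lrig1, a membrane protein that promotes the breakdown of ErbB receptors, went from 67.9, 60.2 and 72.5 CPM to 124.8, 108.9 and 108.7 CPM (log2 fold change 0.77, SE 0.09, edgeR adjusted p = 0.00722). All TGF-β1 cultures were above all CTL cultures for both genes, and both stayed called whichever single library was left out. The ubiquitin ligases Cbl (0.24, edgeR adjusted p = 0.0435), which acts on EGFR, and Rnf41 (0.30, adjusted p = 0.0363), which acts on ErbB3, rose slightly. Cbl lost its call whichever single library was left out, and Rnf41 kept it only without TGF-β1 replicate 2. Socs3, a suppressor of cytokine signalling, fell from 35.3, 42.2 and 30.5 CPM to 21.3, 16.6 and 20.6 CPM (log2 fold change -0.89, edgeR adjusted p = 0.0184), and lost its call without replicate 1 of either group. Errfi1, the feedback inhibitor of EGFR kinase, had a log2 fold change of -0.21 (edgeR adjusted p = 0.335, and 0.0127 with the block).

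Of 30 genes for adaptors, kinases and other carriers of the signal, edgeR called 3 higher and 1 lower, or 10 and 6 with the replicate block, beside 5.00% and 6.69% of all genes tested, or 15.1% and 19.1% with the block. Their median log2 fold change was 0.09. Plcg1, the phospholipase Cγ that ErbB receptors activate, rose by 0.53 (edgeR adjusted p = 0.0202). Map2k1, the gene of a MEK kinase that phosphorylates ERK, rose by 0.38 (adjusted p = 0.0405 in edgeR) and the tyrosine kinase Src by 0.30 (0.0355). Pik3r1, the regulatory subunit of PI3K, went from 116.1, 140.7 and 122.5 CPM to 89.3, 79.9 and 96.6 CPM, a fall of 0.51 on the log2 scale (edgeR adjusted p = 0.0262). Leaving out 1 library ended the call of Plcg1 in 3 of 6 edgeR fits and that of each of the other 3 in 5 of 6.

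Of 20 genes that ERK signalling is known to induce, edgeR called 2 higher and 5 lower, or 7 and 6 with the replicate block. Of all genes tested it called 5.00% and 6.69%, or 15.1% and 19.1% with the block. The median log2 fold change of the list was -0.08. Fos, an immediate early gene, had the lowest p of the list and went from 14.12, 16.97 and 15.67 CPM to 7.54, 7.56 and 7.18 CPM (log2 fold change -1.07, SE 0.09, edgeR adjusted p = 0.00379). Ccnd1, which encodes cyclin D1, went from 255.0, 268.2 and 304.2 CPM to 114.6, 123.7 and 169.7 CPM (log2 fold change -1.02, SE 0.16, edgeR adjusted p = 0.0166). The groups of both genes did not overlap. Spry2 (-0.63, edgeR adjusted p = 0.00833) and Spry1 (-0.50, adjusted p = 0.0339), inhibitors of signalling downstream of receptor kinases, fell. Spred1 fell by 0.22 on the log2 scale (edgeR adjusted p = 0.0345). Dusp4, a phosphatase of ERK, rose by 0.51 (edgeR adjusted p = 0.0124) and Phlda1 by 0.47 (adjusted p = 0.0188). The genes of the list that fell include a cell cycle gene and inhibitors of the pathway. Without single libraries Fos kept its call in 6 of 6 edgeR fits, Spry2 in 5, Ccnd1 and Dusp4 in 4, Phlda1 in 3, Spry1 in 2 and Spred1 in 0. Ptgs2, which was not called (log2 fold change 1.51, edgeR adjusted p = 0.102), was called with the block (adjusted p = 0.000515). Other early response genes did not follow Fos. Egr1 (-0.09), Ier2 (0.29) and Fosl1 (0.64) were not called (edgeR adjusted p = 0.45, 0.106 and 0.13). With the block Ier2 and Fosl1 were called higher (edgeR adjusted p = 0.00434 and 0.0106).

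**Figure D4:**
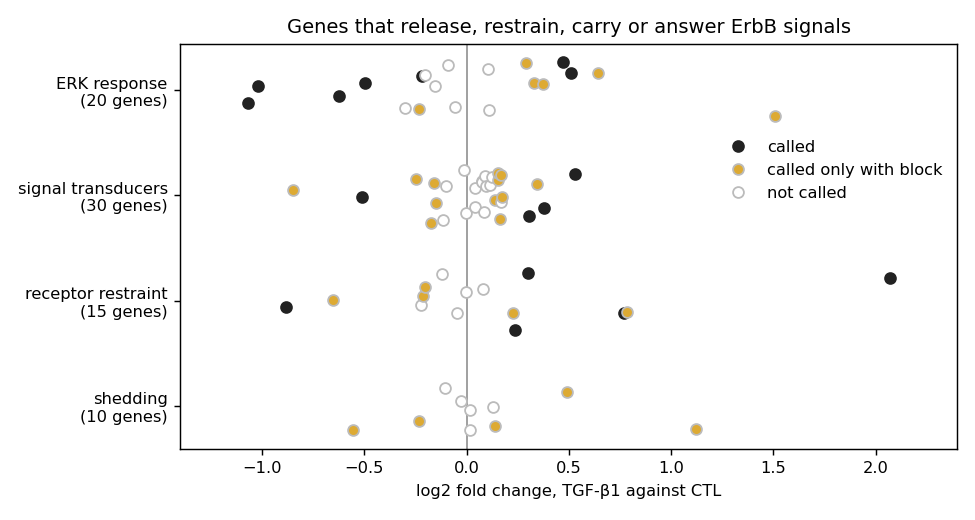
Log2 fold change of TGF-β1 against CTL (horizontal axis) for each gene of the 4 lists (rows), black where edgeR called the gene, yellow where it did so only with the replicate block, and open otherwise; vertical spread within a row only separates points. Lrig3 is the point at 2.07 in the receptor restraint row, which holds genes that restrain receptors or control their turnover. Fos is the lowest in the ERK response row at -1.07.

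Over the 6 libraries the log2 CPM of Gm5424 (Pearson's r = 0.999), Rab4b (0.997) and Dcakd (0.997) were most like those of Hbegf, and those of Ccdc151 (0.992), Abcc5 (0.989) and Pim3 (0.986) were most like those of Egfr. These r values describe 6 libraries that also share the treatment groups and the replicate numbers.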

How the data were processed

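The deposited files hold whole-number read counts per Ensembl gene and culture, not normalized. The authors made them from single-end 50 bp reads with Trim Galore, STAR 2.4.1d and HTSeq 0.6.1 on GRCm38. The strand setting and annotation release are not given in the sources used here. Reads on no gene (4.16 to 4.93%), on several genes (1.88 to 1.97%) or placed more than once (18.7 to 19.4%) were left out. Symbols, exon lengths and coordinates came from GENCODE M21, which held 46005 of the 46517 identifiers. Genes passing filterByExpr were fitted in edgeR 4.0.16 (R 4.3.3) by robust quasi-likelihood with TMM scaling, TGF-β1 against CTL, 2-sided, with Benjamini-Hochberg adjustment over 15862 genes. The procedure was tested on simulated data. SEs and 95% intervals are on the log2 scale. No source says that the cultures came from separate animals, so p-values measure the spread between these cultures.

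Deviations from group means correlated at 0.34, 0.684 and 0.572 for cultures of the same replicate number, and at -0.617 to 0.215 otherwise. The main fit did not pair the cultures. Only in the blocked fit were the numbers taken to pair them, from the data and not from a stated design. Alternatives were DESeq2 1.42.0, limma-voom (limma 3.58.1), other scalings and filters, an adjusted p of 0.01, a replicate block, and leaving out libraries. Named genes were all members and family genes, the TGF-β check genes (1 of them is not reported here), and up to 6 genes of lowest p called in each pathway list (Spred1 and the genes not called without the block were named after their values were seen), and likeness was given for the ligand and the receptor of highest level. Members and lists were chosen with earlier results of these data known.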

Additional observations from a re-analysis of the deposited data

How the results depend on the processing

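Over 18 alternatives to the log2 fold changes of the 10 members, 145 of 180 values kept direction and call, 8 gained a call, 22 lost one and 5 turned direction, and those 5 belonged to genes that were never called. Ereg ranged over -0.305 (without TGF-β1 replicate 2) to 0.499 without 1 library. Btc ranged over -0.30 to 0.23 without 1 library, being above 0 without CTL replicate 1 or 3 or TGF-β1 replicate 2, and was at 0.17 when the replicate 1 pair was left out. The cause was not tested. With 2 members higher and 1 lower by edgeR in the first place, the counts were 1 higher with genes of a single read kept, 0 and 0 at an adjusted p of 0.01, 0 to 2 higher and 0 to 1 lower without 1 library, 0 and 0 without replicate 1 in both groups, 1 and 0 without replicate 3 in both groups, and 4 lower with the replicate block, with or without replicate 2. Over all genes, 793 higher and 1061 lower became 2388 and 3037 with the replicate block (2288 and 2718 without replicate 2), 1201 and 1521 with DESeq2, 127 and 192 at an adjusted p of 0.01, 109 to 516 and 186 to 807 without 1 library, and 95 and 190 without replicate 3 in both groups. Without replicate 1 in both groups edgeR called 0 and 0, with 1938 genes at an unadjusted p under 0.05. With library size alone as the scale, 508 were higher and 1467 lower, so that 25.7% of calls were higher instead of 42.8%, and the median of all genes was -0.08. The replicate block ended no call of a member and added 4. In the order of levels, 18 of 20 places were the same with the longest transcript as the length. With TPM 20 of 20 were the same, but TPM rescales all genes of a library alike. It cannot change their order within a library, so it does not test that order. Below 50 reads a library, as for Egf, counting error limits what could be seen.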
